A study of Homo sapiens with 18 samples.

Results

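The line-by-hypoxia interaction asks of each gene whether the difference between once-hypoxic and never-hypoxic cells is of the same size in 2 head and neck squamous carcinoma lines. It was computed as the post-hypoxic minus non-hypoxic difference in SCC154 less the same difference in FaDu, on a log2 scale. A negative value means that post-hypoxic SCC154 cells stood lower against their non-hypoxic partners than post-hypoxic FaDu cells did against theirs. All 18 of the 18 libraries of the series entered it, because the contrast needs each of the 4 groups in the sample titles. FADU-hfm, the HPV-negative line (without human papillomavirus), gave 4 non-hypoxic and 5 post-hypoxic libraries. SCC154-hfm, the HPV-positive line, gave 5 non-hypoxic and 4 post-hypoxic libraries. Non-hypoxic cells were the DsRed-positive and post-hypoxic cells the GFP-positive fraction of a sort. All 4 groups shared the rest of their history: spheroids in ultra-low attachment plates, trypsin, sorting, and then culture and passage at 37°C before RNA extraction.

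Hypoxia fate mapping marks a cell for good: a reporter that responds to low oxygen switches the cell and its descendants from red to green fluorescence. The sensor behind such reporters is the hypoxia-inducible factor (HIF), a transcription factor whose alpha subunit is hydroxylated by the EGLN enzymes and destroyed through VHL when oxygen is present. In low oxygen HIF binds short DNA elements and raises genes of glycolysis, angiogenesis and survival, and these genes usually return towards their earlier level once oxygen is back. The post-hypoxic cells here were measured after sorting, culture and passage. The comparison therefore covers differences that persist, arise later or were present before the hypoxia, which the data do not separate. Line and papillomavirus status are the same split of the libraries and cannot be told apart. Each status is represented by 1 transduced line, whether the lines are clones is not given in the sources used here, and nothing says that replicates were separate cultures or sorts. The p-values therefore speak of the spread among these libraries alone, and that spread may be technical. In bulk RNA, fewer cells of a type and less RNA per cell cannot be told apart.

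Library totals lay between 1654719 and 2503573 counts of 3′ tags, and 12291 of 41120 gene symbols had enough counts to be tested. Levels are given as CPM (a gene's count relative to the scaled library size, on 1 common scale), which compares a gene across libraries. The squamous markers KRT5, KRT14, KRT17, TP63, EPCAM and CDH1 were detected in every library, and of the fibroblast, endothelial and immune marker lists 0, 1 and 0 members were tested. In a principal component analysis of the deviations from the group means, the first component held 24.98% of the variance. Replicate 1 of both FaDu groups and replicate 3 of the post-hypoxic SCC154 group lay at one end of it, at -28.98, -19.9 and -29.2, and replicate 4 of every group lay at the other, between 20.2 and 24.3. Some list medians are therefore also given without the first 3 of these libraries, a setting chosen after seeing the data. No pair of replicates matched within sampling noise.

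In 2 genes the post-hypoxic minus non-hypoxic difference itself differed between the lines at an adjusted p under 0.05 by edgeR. CALD1, which encodes the actin- and tropomyosin-binding protein caldesmon, and NFIB, a DNA-binding regulator from the nuclear factor I group, were lower in post-hypoxic than in non-hypoxic SCC154 cells and were not lower in post-hypoxic FaDu cells. With Benjamini-Hochberg adjustment of the quasi-likelihood test of edgeR, they were 0.0163% of the 12291 genes tested. No gene passed in the positive direction. At an unadjusted p under 0.05 there were 569 genes with a positive (4.63%) and 633 with a negative interaction (5.15%), together 9.78% of the genes. About 615 genes would be expected at that p if none differed, and the FaDu difference of the same fit had fewer, 298 (2.42%). Genes vary together across libraries, so neither count measures how many genes differ. Genes that did not pass may differ as well. With the replicate number as a block in FaDu, where same-numbered libraries deviated together, 6 genes passed (0.0488%), 3 in each direction (0.0244%). They were CALD1, NFIB and IGF2BP3 with a negative and ARL14, MYLK and the mitochondrial tRNA gene MT-TS1 with a positive interaction. The MT-TS1 value in that fit was 6.08 on the log2 scale. Its counts per group were not examined, so how many counts it rests on is not known here. DESeq2 called 21 genes on the same counts (0.171%), 9 positive (0.0732%) and 12 negative (0.0976%), CALD1 and NFIB among them. Limma's voom called 3, all negative (0.0244%), CALD1 and NFIB among them.

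CALD1 lies on chr7 from 134711499 to 134970729 (RefSeq, GRCh38.p14), and no other gene of the GENCODE annotation overlaps it. In non-hypoxic FaDu libraries it stood at 206, 204, 176 and 189.8 CPM, and in post-hypoxic FaDu libraries at 185, 208, 209, 203 and 202 CPM. In non-hypoxic SCC154 libraries it stood at 58.2, 44.5, 44.3, 49.4 and 46.4 CPM, and in post-hypoxic SCC154 libraries at 12.3, 9.55, 11.1 and 15.9 CPM. The FaDu groups overlapped throughout, while the highest post-hypoxic SCC154 library lay below the lowest non-hypoxic one. The log2 difference was -1.98 (SE 0.14) in SCC154 and 0.06 (SE 0.10) in FaDu, and the interaction was -2.03 (SE 0.18, 95% confidence interval -2.40 to -1.67, adjusted p = 5.48e-07 by edgeR). The lines differed in the non-hypoxic cells too: FaDu had 3.99-fold more CALD1 than SCC154 there, and 16.5-fold more among post-hypoxic cells. The values rest on 513 counts in the non-hypoxic and 108 in the post-hypoxic SCC154 libraries, and on 1605 and 2205 counts in FaDu.

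NFIB lies on the minus strand of chr9 from 14081843 to 14532077. An antisense transcript and a processed pseudogene overlap it on the other strand, but nothing annotated overlaps its last 2000 bases, where 3′ tags fall. Its level was 53.7, 45.7, 46.9 and 50.7 CPM in non-hypoxic and 52.9, 64.0, 49.9, 57.0 and 70.0 CPM in post-hypoxic FaDu libraries. In SCC154 it was 59.7, 57.5, 51.2, 60.7 and 70.9 CPM in non-hypoxic and 20.1, 26.8, 25.01 and 37.2 CPM in post-hypoxic libraries. Again the FaDu groups overlapped and the SCC154 groups did not. The log2 difference was -1.14 (SE 0.16) in SCC154 and 0.26 (SE 0.15, adjusted p = 1 by edgeR) in FaDu, which gave an interaction of -1.40 (SE 0.22, interval -1.85 to -0.95, adjusted p = 0.00811). Unlike CALD1, NFIB had like levels in the non-hypoxic cells of the lines. Mean FaDu CPM was 0.821 times that of SCC154 among non-hypoxic cells and 2.15 times among post-hypoxic cells.

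CALD1 and NFIB also passed under all 31 alternative settings tried, including all 18 fits that left out 1 library. The CALD1 interaction ranged from -2.18 to -1.95 over them and that of NFIB from -1.58 to -1.27, with a highest adjusted p of 1.23e-05 for CALD1 and 0.0434 for NFIB. In the fit with the block in FaDu the values were -2.03 (adjusted p = 1.23e-05 by edgeR) and -1.33 (adjusted p = 0.0422).

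**Figure D1:**
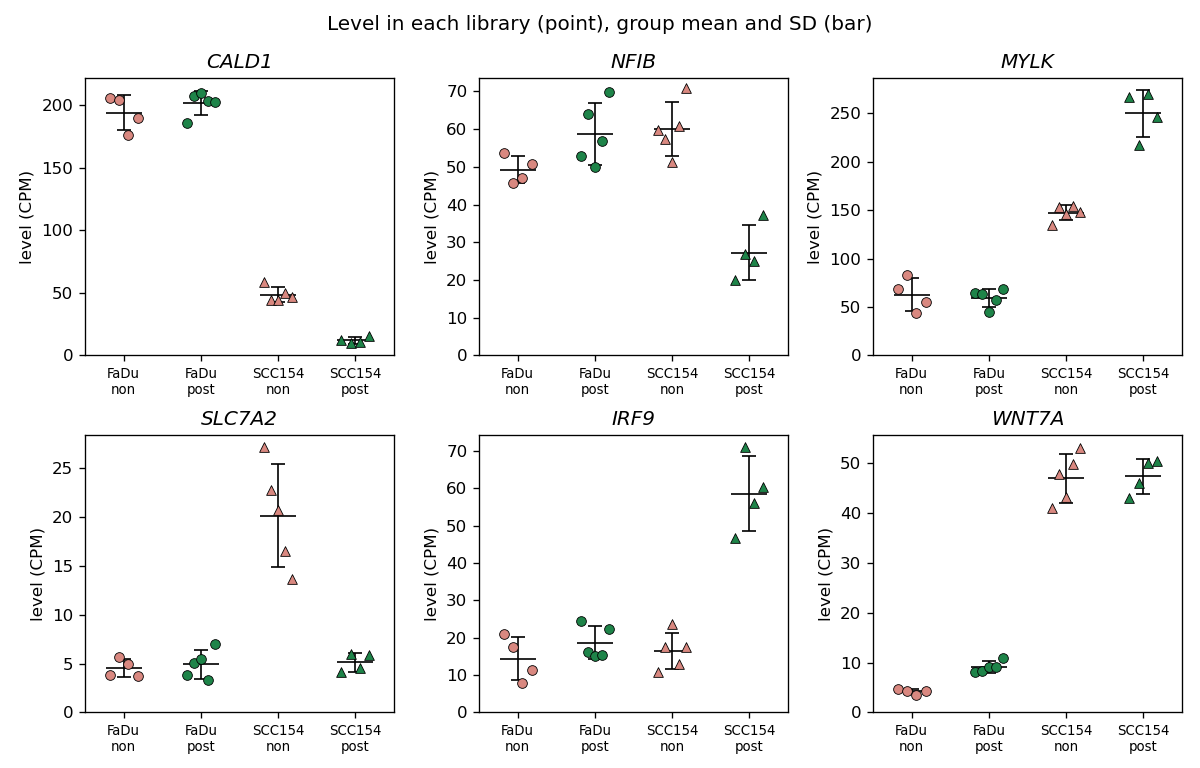
Level of 6 genes in CPM (vertical axes, linear, from 0) in the 18 libraries, by line and sorted fraction; circles are FaDu, triangles SCC154, red non-hypoxic and green post-hypoxic, with the group mean and SD as bars. CALD1 lies between 9.55 and 15.9 CPM in post-hypoxic SCC154 and between 176 and 209 CPM in FaDu. WNT7A is separate between the FaDu fractions and overlaps in SCC154.

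The promoters of both genes are shown because HIF reads its targets through a short core, ACGTG or GCGTG. RefSeq (GRCh38.p14) gives 4 starts for CALD1 and 10 for NFIB, each with a window of 250 bases before to 50 after the start. The core, searched on both strands, was in 2 of the CALD1 and 4 of the NFIB windows, and in 48.4% of the 35116 windows of all genes. The full nuclear factor I palindrome, searched likewise, was in none of these windows and in 0.0285% of all. Tags of the 3′ end do not tell which start was used. The windows below run 5′ to 3′ on the strand of the gene, with the core in capitals. They are the CALD1 windows chr7:134711249-134711548 and chr7:134891208-134891507 and the NFIB window chr9:14306796-14307095 on the minus strand.
CALD1 first start: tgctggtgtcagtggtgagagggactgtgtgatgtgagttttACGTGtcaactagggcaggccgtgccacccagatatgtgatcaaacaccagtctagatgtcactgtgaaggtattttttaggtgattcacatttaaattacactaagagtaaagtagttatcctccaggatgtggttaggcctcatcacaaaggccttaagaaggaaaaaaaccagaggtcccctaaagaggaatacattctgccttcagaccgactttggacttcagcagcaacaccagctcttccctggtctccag
CALD1 internal start: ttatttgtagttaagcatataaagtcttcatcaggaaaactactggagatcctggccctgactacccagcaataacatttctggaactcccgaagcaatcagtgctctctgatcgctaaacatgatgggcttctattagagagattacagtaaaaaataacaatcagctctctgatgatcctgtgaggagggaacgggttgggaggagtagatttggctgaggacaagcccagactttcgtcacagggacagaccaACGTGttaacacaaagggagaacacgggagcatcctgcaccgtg
NFIB internal start: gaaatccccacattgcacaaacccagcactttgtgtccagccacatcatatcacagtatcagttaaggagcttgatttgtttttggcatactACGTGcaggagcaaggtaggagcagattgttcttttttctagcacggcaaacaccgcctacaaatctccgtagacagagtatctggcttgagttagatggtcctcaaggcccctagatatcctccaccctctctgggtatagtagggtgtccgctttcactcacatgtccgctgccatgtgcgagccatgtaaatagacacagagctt
The CALD1 and NFIB windows thus hold the core at about the rate of other promoters, which describes these letters and not the binding of a factor.

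Genes other than CALD1, NFIB and the 8 hypoxia genes given further on were chosen after their values were seen. The other members of the nuclear factor I family did not pass. NFIA was at 374 ± 79.8 CPM (SD, n = 4) in non-hypoxic FaDu and 15.3 ± 2.31 CPM (SD, n = 5) in non-hypoxic SCC154, and its interaction was -0.60 (interval -1.18 to -0.02, adjusted p = 0.493 by edgeR). NFIX had -0.46 (interval -1.05 to 0.14) and NFIC -0.12 (interval -0.39 to 0.15). All 3 estimates had the sign of NFIB, and none of the 3 intervals reached its value of -1.40. The NFIB interval of -1.85 to -0.95 overlapped those of NFIA and NFIX but not that of NFIC. A difference between NFIB and its relatives was not tested.

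The next 18 genes by p did not pass in edgeR's fit without a block, and most of them differed more in SCC154 than in FaDu. Of those described here, DESeq2 called SLC7A2, IGF2BP3, ARL14, LRATD1, GOLPH3L, MRNIP, CADPS2, PM20D2, IRF9, TM4SF1, PALLD, TK1, WWC2 and MYLK, with adjusted p from 0.0206 to 0.0411, and did not call RRAGD, WNT7A or ARFGEF3. Of the 20 genes with the lowest p, the 2 called ones included, the difference was larger in SCC154 in 15, and the interaction was negative in 14 and positive in 6. The strand setting of the counting is not given, so reads of a gene and of a neighbour over its 3′ end on the other strand cannot be told apart. This concerns IGF2BP3, MRNIP, PALLD, WWC2 and MYLK, and IRF9 has such a neighbour on its own strand. Of the genes described further on, LDHA, FAM162A, ZFP28, MYL12A, TPM1 and ITGA6 also have an annotated neighbour over the 3′ end.

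SLC7A2, a transporter of cationic amino acids, had the pattern of CALD1 at a lower level. Its SCC154 libraries were at 27.1, 22.7, 20.7, 16.5 and 13.7 CPM when non-hypoxic and 4.10, 5.97, 4.51 and 5.90 CPM when post-hypoxic. Its FaDu libraries ran from 3.77 to 5.66 and from 3.30 to 7.04 CPM. So the post-hypoxic SCC154 level lay within the range of FaDu, and the interaction was -2.08 (SE 0.40, adjusted p = 0.0772 by edgeR). IGF2BP3, an oncofetal RNA-binding protein, stood between 82.5 and 142 CPM in FaDu and went from 29.1 ± 5.35 (SD, n = 5) to 15.3 ± 1.94 CPM (SD, n = 4) in SCC154, with an interaction of -1.11 (SE 0.24, adjusted p = 0.134 by edgeR, and 0.0422 with the block in FaDu). Its relative IGF2BP1 had -0.99 (adjusted p = 0.235), but there the larger difference was in FaDu (0.85, adjusted p = 0.485), against -0.14 in SCC154, and IGF2BP2 had -0.03 (interval -0.34 to 0.29).

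RRAGD, a Rag GTPase that signals amino acid supply to mTORC1, had the most negative value among these genes, -3.01 (SE 0.62, adjusted p = 0.134 by edgeR), but on few SCC154 counts. There were 25 counts in the 5 non-hypoxic and 2 in the 4 post-hypoxic SCC154 libraries, a ratio of 0.0964 with a 95% counting interval of 0.0111 to 0.386 (exact, counting error only). FaDu had 97.1 ± 7.61 and 92.2 ± 7.67 CPM. LRATD1 (-1.82), CADPS2 (-1.69), PALLD (-0.79) and WWC2 (-0.74) were also negative with separate SCC154 groups, and in CADPS2 and PALLD the FaDu groups were separate too, in the opposite direction. PALLD encodes palladin, an organiser of actin bundles, and CADPS2 a priming factor of vesicle release.

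Of the positive interactions ARL14 ranked highest. This small GTPase of the ARF-like family was at 12.8, 12.2, 7.99 and 9.71 CPM in non-hypoxic and 8.17, 6.44, 5.45, 3.71 and 8.80 CPM in post-hypoxic FaDu. In SCC154 it was at 27.6, 29.96, 27.0, 19.1 and 27.0 and then 43.4, 40.0, 44.7 and 38.1 CPM. The lines thus differed in opposite directions, with -0.73 in FaDu and 0.67 in SCC154, and the interaction was 1.41 (SE 0.29, adjusted p = 0.134 by edgeR, and 0.0422 with the block in FaDu). MYLK, the kinase that phosphorylates myosin light chains, stood between 135 and 155 CPM in non-hypoxic and 217 and 269.8 CPM in post-hypoxic SCC154, against 43.4 to 83.2 and 45.0 to 68.6 CPM in FaDu. Its interaction was 0.84 (SE 0.20, adjusted p = 0.205, and 0.0422 with the block in FaDu). GOLPH3L (0.77), MRNIP (1.20), IRF9 (1.48) and TM4SF1 (2.46) completed the positive side, with adjusted p from 0.134 to 0.196. The TM4SF1 value (interval 1.28 to 3.63) rests on few SCC154 counts, 10 in the non-hypoxic and 42 in the post-hypoxic libraries. IRF9, the DNA-binding part of the interferon-activated complex ISGF3, passed within SCC154 but differed in the same direction in FaDu (0.35), and its interaction interval was 0.78 to 2.19.

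In 5 of the 20 genes the larger difference was in FaDu, by a narrow margin in ARL14 and clearly in the other 4. WNT7A, a secreted ligand of the WNT pathway, was at 4.75, 4.36, 3.49 and 4.31 CPM in non-hypoxic and 8.17, 8.28, 9.08, 9.08 and 10.999 CPM in post-hypoxic FaDu libraries, with no overlap. In SCC154 it stayed between 41.0 and 53.1 CPM in both groups. Its interaction was -1.09 (SE 0.24, interval -1.59 to -0.60, adjusted p = 0.142 by edgeR). TK1, the thymidine kinase of S phase, was at 113, 119, 146 and 131 CPM and then at 149.9, 256, 224, 179 and 293 CPM in FaDu, and between 101 and 135 CPM in SCC154, with an interaction of -0.89 (SE 0.21, adjusted p = 0.205). PM20D2 (-0.74) and ARFGEF3 (-1.16) had the same form. In WNT7A, TK1, PM20D2 and ARFGEF3 the FaDu groups did not overlap. Each of the 4 FaDu pairs of the same number was therefore bound to be higher in the post-hypoxic library, which adds no support. None of these 4 genes passed within FaDu, where the lowest adjusted p of any gene was 0.145.

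Across genes the 2 sets of log2 differences were nearly uncorrelated. Within SCC154 edgeR called 93 genes (0.757%), 41 higher (0.334%) and 52 lower (0.423%), and within FaDu 0, with 298 genes (2.42%) at an unadjusted p under 0.05 and 3 called by DESeq2. The SCC154 count ran from 20 to 190 when 1 library was left out, lowest without non-hypoxic replicate 2 or post-hypoxic replicate 4 and highest without post-hypoxic replicate 5, while the interaction called 2 or 3 genes. The within-line contrasts share no library. Of the 41 genes higher in SCC154, 20 were also higher in FaDu, and of the 52 lower genes 22 were also lower. Their median FaDu difference was 0.00 and 0.04. Over all tested genes 48.5% were higher in post-hypoxic FaDu. The correlation of the 2 log2 differences across the 12291 genes was -0.03 (Pearson; Spearman -0.06), and -0.12 over the 4803 genes with a mean of at least 50 CPM. Genes are not independent replicates, and these are descriptions. The median absolute FaDu difference, 0.11, was below its median standard error of 0.18. A correlation near 0 therefore cannot show that the differences in the 2 lines are unrelated. The median absolute difference was 0.18 in SCC154 and 0.11 in FaDu, and 7787 of the 12291 genes had the larger one in SCC154. The median standard error was 0.18 in each line. All groups share 1 estimate of the spread per gene, so these errors cannot show whether the lines were equally noisy.

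**Figure D2:**
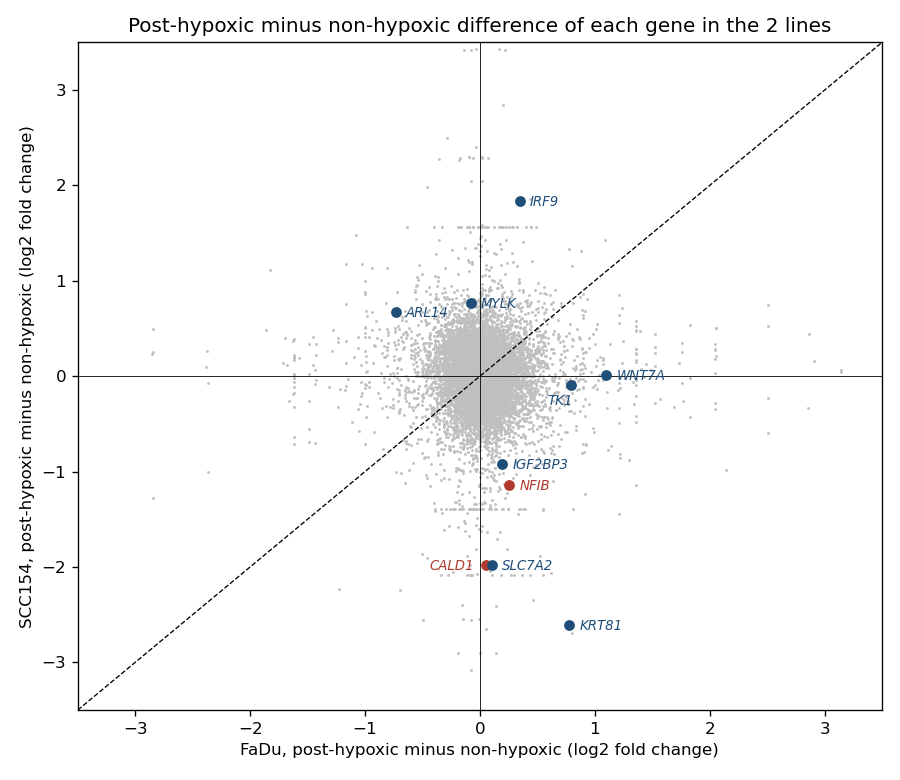
Post-hypoxic minus non-hypoxic log2 fold change of each of 12287 tested genes in FaDu (horizontal) and SCC154 (vertical), both axes from -3.5 to 3.5 with 4 genes outside; the dashed line marks equal differences, so the vertical distance from it is the interaction. CALD1 and NFIB (red) pass the test, and the genes in blue do not.

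The contrast of 4 groups is noisier than either difference. The median standard error of the interaction was 0.27, against 0.18 in each line. It was 0.18 for genes of at least 50 CPM, 0.29 from 10 to 50 CPM and 0.54 under 10 CPM. Counted across these levels, 386 tested genes were under 1 CPM in both FaDu groups (median standard error 1.18) and 364 in both SCC154 groups (1.32). For these the data hold little on a difference between the lines. The hair keratin KRT81 is an example. In SCC154 it was at 49.4, 46.4, 42.6, 38.2 and 28.6 CPM and then 6.14, 8.35, 6.15 and 6.35 CPM, but FaDu had 2 counts in the non-hypoxic and 5 in the post-hypoxic libraries. Its interaction of -3.39 had a standard error of 1.06 and an adjusted p of 0.321 by edgeR, and its 3′ end overlaps KRT86. The amino acid transporter SLC6A14 and the zinc finger gene ZFP28 passed within SCC154 and had 0 counts in all 9 FaDu libraries, so no FaDu difference exists to compare. SOX2, a factor of stem and squamous progenitor cells, went from 27.0 ± 8.20 (SD, n = 5) to 12.6 ± 1.099 CPM (SD, n = 4) in SCC154 and had 1.66 ± 0.951 (SD, n = 4) and 2.71 ± 1.20 CPM (SD, n = 5) in FaDu, with an interaction of -1.74 (interval -2.81 to -0.67, adjusted p = 0.321). SOX2 lies within SOX2-OT on the same strand, so its reads may be shared. REC8, a cohesin subunit of meiosis, had 1.43 (interval 0.36 to 2.498, adjusted p = 0.381), and NANOS1, a translational repressor that passed within SCC154, 0.47 (interval -0.17 to 1.11). The 3′ ends of REC8 and NANOS1 lie under IPO4 and EIF3A on the other strand, so these counts may hold reads of the neighbours.

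None of the 8 hypoxia genes that were to be named whatever their result passed the interaction test. BNIP3, a mitophagy receptor, came nearest, with 43.3, 62.3, 49.4 and 48.0 CPM in non-hypoxic and 33.2, 51.1, 43.1, 37.6 and 43.6 CPM in post-hypoxic FaDu. Its SCC154 libraries were at 52.3, 63.8, 65.0, 63.3 and 72.1 and then 66.8, 119, 89.4 and 75.8 CPM. The groups overlapped in both lines, and the interaction was 0.74 (interval 0.27 to 1.21, adjusted p = 0.321 by edgeR). VEGFA, the angiogenic growth factor, had the opposite sign, -0.76 (interval -1.47 to -0.05, adjusted p = 0.484), and non-hypoxic SCC154 replicate 1 stood at 32.1 CPM where the other 4 were at 102 to 121. NDRG1, a stress-responsive gene, had 0.96 on the strength of 1 library: post-hypoxic SCC154 replicate 3 had 71.6 CPM and the other 3 between 4.10 and 9.08, and without it the interaction was -0.83.

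CA9, the carbonic anhydrase used as a hypoxia marker, was at 7.97 ± 1.17 (SD, n = 4) and 8.86 ± 3.99 CPM (SD, n = 5) in FaDu. It had 0 counts in the 5 non-hypoxic and 5 in the 4 post-hypoxic SCC154 libraries. The lowest and second-lowest post-hypoxic libraries were also at 0. Against a floor of 3 counts for the non-hypoxic group, CA9 was 2.01-fold higher in the post-hypoxic group. That value leaves out the counting error of the 5 counts and is no lower limit. Its fitted interaction of 3.26 (adjusted p = 0.489 by edgeR) depends on the prior count. ADM, a vasodilator peptide, had 0.62 (interval 0.01 to 1.23), LDHA, which makes lactate, 0.36 (interval -0.07 to 0.78), the glucose transporter gene SLC2A1 0.22 and PDK1, which holds pyruvate out of mitochondria, 0.09, with adjusted p from 0.500 to 0.966.

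**Figure D3:**
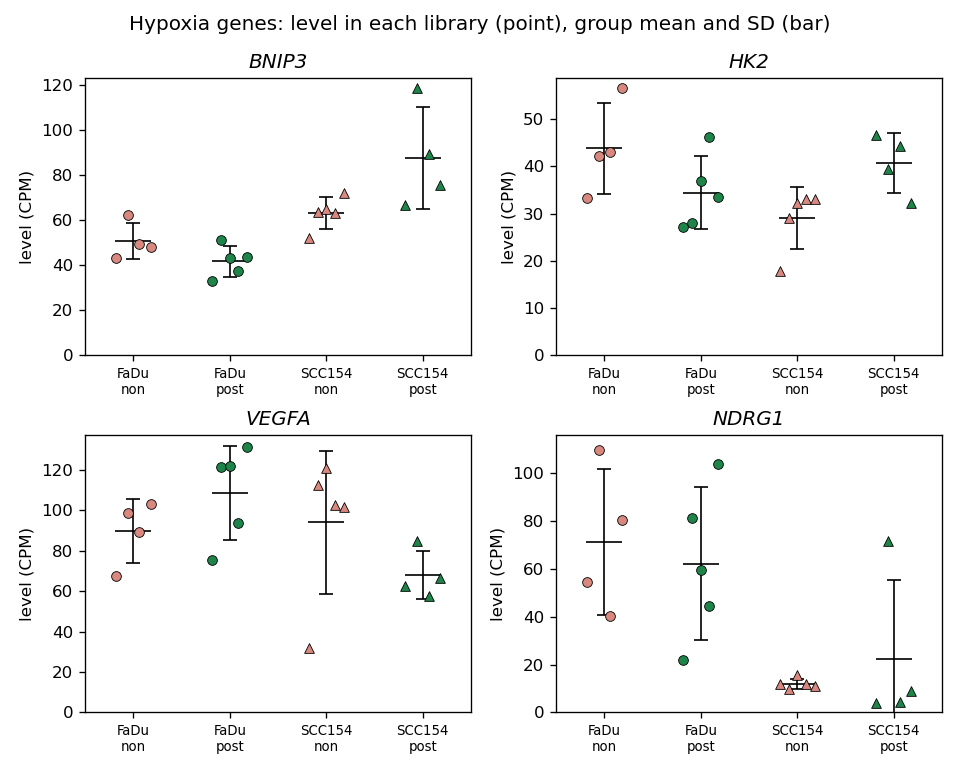
Level of 4 hypoxia genes in CPM (vertical axes, linear, from 0) in each library, with marks as for the CALD1 plot and the group mean and SD as bars (cut at 0 for NDRG1). Single libraries stand apart: VEGFA at 32.1 CPM in 1 non-hypoxic SCC154 library and NDRG1 at 71.6 CPM in 1 post-hypoxic SCC154 library.

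As a list the HIF targets lay above 0. Of 31 tested members 25 had a positive interaction, with a median of 0.30, where 6063 of all 12291 genes were positive and their median was -0.00. The median difference was 0.29 in SCC154 and -0.06 in FaDu. None of the 31 was called, against 0.0163% of all genes, and 8 had an unadjusted p under 0.05 with a positive and 1, VEGFA, with a negative interaction. Besides BNIP3, CA9 and ADM these were HK2, EGLN3, TMEM45A, FAM162A and KDM3A. The list median kept its sign in the 31 other settings, from 0.23 to 0.39, and was 0.29 with 22 of 31 positive when the 3 libraries at one end of the first component were left out. CA9 was the 1 member with a group at 0, and setting that group to the floor of 3 counts left the median at 0.30.

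HK2, the hexokinase that starts glycolysis, illustrates the pattern. It was at 33.3, 42.2, 42.9 and 56.6 CPM in non-hypoxic and 27.2, 28.1, 36.8, 46.2 and 33.4 CPM in post-hypoxic FaDu, lower in each of the 4 pairs. In SCC154 it was at 17.8, 28.99, 32.2, 33.0 and 33.2 and then 46.7, 39.4, 44.3 and 32.2 CPM. The groups overlapped in each line, and the interaction was 0.82 (interval 0.27 to 1.38, adjusted p = 0.329 by edgeR). EGLN3, an oxygen sensor that HIF itself raises, had 1 count in non-hypoxic and 19 in post-hypoxic SCC154 libraries, 13 of them in replicate 3. TMEM45A had 1.58, KDM3A, a histone demethylase, 0.43 and FAM162A 0.41.

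**Figure D4:**
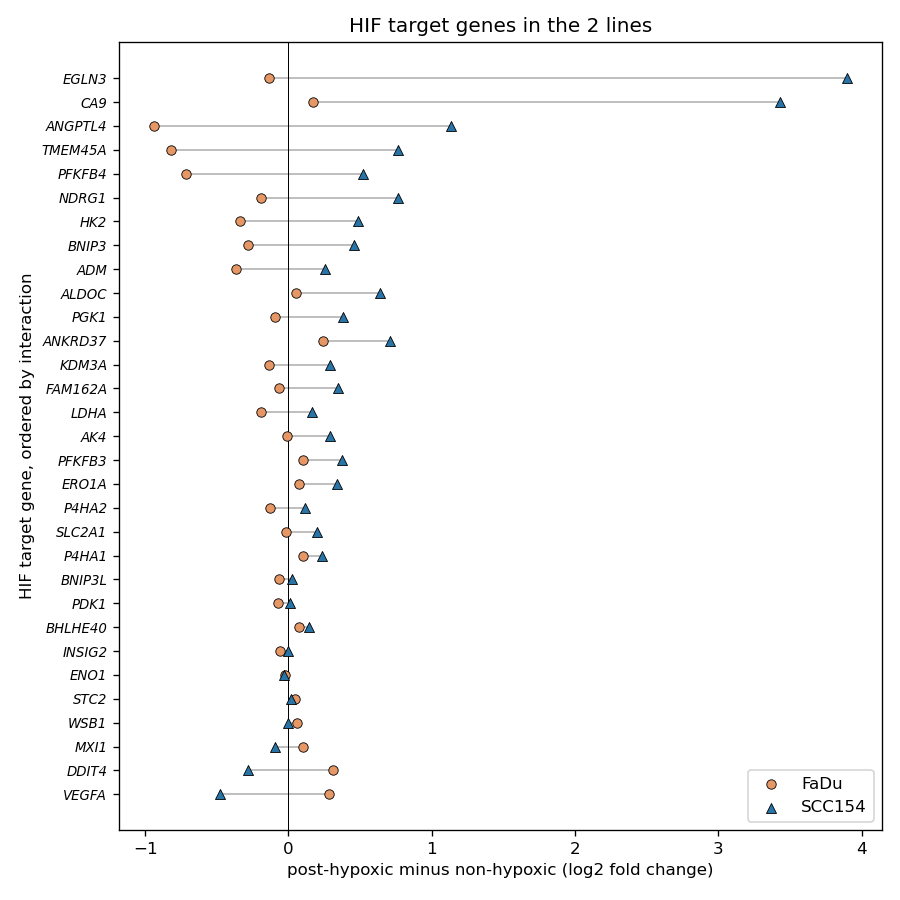
Post-hypoxic minus non-hypoxic log2 fold change (horizontal axis) of the 31 tested HIF target genes (rows) in FaDu (circles) and SCC154 (triangles), joined by a line whose length is the interaction. In 25 rows the triangle is to the right of the circle, and no gene passes the test.

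Among the oxygen sensors and HIF subunits, 4 of 7 tested genes were positive. VHL, the ubiquitin ligase subunit that marks HIF alpha for destruction, was the exception with the lowest p. It was at 100.3, 113, 97.3 and 85.2 CPM and then 99.7, 110.0, 99.9, 106 and 125 CPM in FaDu, and at 89.8, 88.4, 77.6, 98.9 and 82.1 and then 56.1, 62.6, 53.7 and 72.1 CPM in SCC154. Only the SCC154 groups were separate, and the interaction was -0.65 (interval -0.99 to -0.30, adjusted p = 0.235 by edgeR). HIF1AN, the asparagine hydroxylase of HIF, had 0.38 (adjusted p = 0.498).

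Other gene lists showed small shifts, and CALD1 was the 1 member of any list that edgeR called without a block. With the block in FaDu MYLK passed too, and DESeq2 called CALD1, MYLK, IRF9, SLC7A2 and TK1 among the lists' members. The actin and contractile genes, the list CALD1 belongs to, had 6 of 24 positive with a median of -0.16. Its regulatory light chain gene MYL12A had -0.37 (adjusted p = 0.484 by edgeR), and the tropomyosin genes TPM1 and TPM4, whose proteins bind caldesmon on the filament, had -0.23 and -0.32 with intervals that included 0. MYLK, of the same list, had the opposite sign (0.84). Lists of energy metabolism were on the positive side: glycolysis had 14 of 19 positive (median 0.17), nuclear subunits of the respiratory chain 27 of 34 (0.15) and mitochondrially encoded transcripts 9 of 13 (0.14), where none of the 13 was higher in post-hypoxic FaDu. MT-CYB, with an interaction of 0.68 (adjusted p = 0.397), was highest in post-hypoxic SCC154 replicates 2 and 4, at 1534 and 1924 CPM, with replicates 3 and 5 at 1025 and 1041 CPM near the non-hypoxic ones. Cytosolic ribosomal protein genes had 55 of 74 positive (median 0.16), with RPL11 at 0.50 (adjusted p = 0.352).

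On the negative side, histone genes had 2 of 17 positive and a median of -0.30, with SCC154 at -0.35 and FaDu at 0.07. H1-2 had 371, 586, 260.3 and 489 CPM in post-hypoxic against 598 to 716 CPM in non-hypoxic SCC154, and an interaction of -0.55 (adjusted p = 0.454 by edgeR). H4C3 had -0.75 and H1-4 -1.20. Most histone messages lack the poly(A) tail that 3′ tag libraries start from, and close copies of these genes may share reads. The TGF-beta and activin pathway had 5 of 21 positive (median -0.22). There FST, the follistatin that captures activin, had -0.81 (interval -1.31 to -0.32, adjusted p = 0.321), with 109 to 139 CPM in non-hypoxic and 49.5 to 88.6 CPM in post-hypoxic SCC154, against 132 to 211 and 139 to 238 CPM in FaDu. PMEPA1, a TGF-beta target, had -1.19, and -0.53 without non-hypoxic SCC154 replicate 1, which stood at 91.3 CPM. INHBB, the activin beta-B subunit, was at or below 0.539 CPM in every FaDu library. YAP/TEAD targets had 6 of 21 positive (median -0.18) and G2/M genes 9 of 36 (-0.13). The double-strand break repair list had 12 of 36 positive (median -0.08), with PRKDC, the kinase that drives end joining, at -0.73 (adjusted p = 0.333). Basal keratinocyte genes had 7 of 18 positive, and ITGA6, the laminin-binding integrin alpha 6, had -0.50 (interval -0.78 to -0.22, adjusted p = 0.256) with separate SCC154 groups.

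These medians depended on single libraries. Without the 3 libraries that stood at one end of the first component, they were 0.29 for nuclear respiratory chain subunits, 0.26 for ribosomal proteins, -0.37 for the TGF-beta and activin pathway, -0.17 for double-strand break repair and -0.07 for G2/M genes, and -0.43 for histones. CALD1 and NFIB were the 2 genes called in that fit. With 1 library left out, the actin median ran from -0.20 to -0.07, nearest 0 without post-hypoxic SCC154 replicate 2. It ran from 0.06 to 0.28 for the respiratory chain subunits, lowest without non-hypoxic FaDu replicate 4, and from 0.06 to 0.23 for the mitochondrially encoded transcripts, lowest without non-hypoxic FaDu replicate 2. Without post-hypoxic SCC154 replicate 4 the ribosomal median was 0.09, that of the TGF-beta and activin pathway -0.12 and that of YAP/TEAD targets -0.10. Glycolysis reached 0.11 without post-hypoxic FaDu replicate 1, G2/M genes -0.08 without non-hypoxic SCC154 replicate 2, repair genes -0.20 without post-hypoxic SCC154 replicate 5 and histones -0.46 without non-hypoxic FaDu replicate 4. None of the medians named so far changed sign in these fits. The outermost lists were less stable still. The stem-cell median of -0.33 was -0.03 with the block in FaDu and -0.16 without the 3 libraries. That of the 6 germline genes, 0.36, ran from -0.36 to 0.41 over the settings. The germline median was 0.95 when the 2 members with a group at 0, for which the floor gave no value, were left out.

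**Figure D5:**
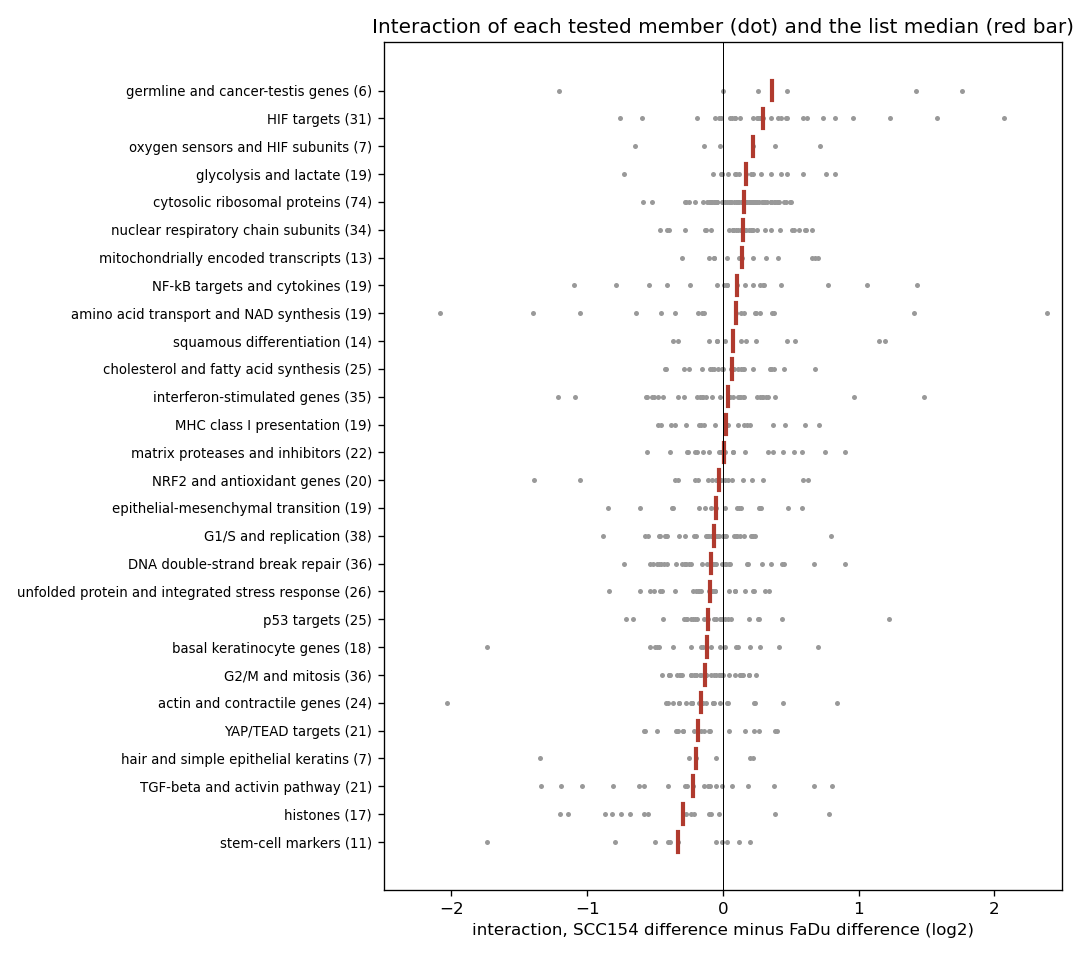
Interaction (log2, horizontal axis from -2.5 to 2.5) of each tested member (grey dots) of the 28 gene lists with at least 5 tested members, and the list median (red bars); the number of tested members follows each name, and 8 values lie outside the axis. The median is 0.30 for the HIF targets and -0.30 for the histones against -0.00 for all genes, and CALD1 is the dot at -2.03 among the actin and contractile genes.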

How the data were processed

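RNA of 18 samples had been made into 3′ tag libraries with a QuantSeq kit, per the labels' protocols. The deposited table holds whole-number read counts per gene symbol, made by the authors. The submitters' processing notes name HISAT2 2.2.1 and the hg38 build, featureCounts 1.5.1 and DESeq2, and also UMI-tools 1.1.5, Trimmomatic 0.39 and FastQC 0.11.9. The sources used here do not give their order, the annotation, the strand setting or whether molecular identifiers were counted. Groups came from the sample titles. Counts were fitted in R 4.3.3 with edgeR 4.0.16 (TMM scaling, filterByExpr, 4 group means, quasi-likelihood test, 14 residual degrees of freedom), adjusted by Benjamini-Hochberg over 12291 genes, with a call at an adjusted p under 0.05. CPM were computed here from the deposited counts and the TMM-scaled library sizes. With 1.65 to 2.50 counts per CPM in a library of that size, levels of a few CPM rest on few counts. Exact intervals cover counting error only. A floor of 3 counts stands in for a group total of 0 and leaves out the counting error of the other group. Alternatives were DESeq2 1.42.0, limma 3.58.1 voom with and without quality weights, other filters and scalings, replicate blocks and leaving out each library. The fits were tested on simulated data.

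Replicate numbers were checked for pairing by the correlation of deviations from the group means. In FaDu these were 0.447, 0.178, 0.208 and 0.438 for replicates 1 to 4, so the numbers were taken as pairs. In SCC154 they were 0.029, 0.292, 0.398 and 0.144 for replicates 2 to 5. These numbers were not taken as pairs, because replicate 2 stood at 0.029. Replicates 3 and 4 of SCC154 lay within the range of FaDu. No differently numbered libraries were set beside these values, so the split between the lines is a choice and not a test.

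The genes to name were the 12 largest called differences in each direction with at least 10 CPM in a group, up to 3 called members of each of 31 lists, and 8 hypoxia genes. Of 769 list symbols 768 matched and 637 were tested. The members and lists were chosen with earlier results of these data known. A result on an item withheld for evaluation is not reported here.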

Additional observations from a re-analysis of the deposited data

Results flagged for a closer look

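The interaction itself separated the lines in CALD1 (-2.03) and NFIB (-1.40), where edgeR's test of the difference passed.

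Among 227 groups of 4 or 5 libraries checked over 58 genes, 19 held a library far from the others; chance alone flags about 1 in 20 groups. In non-hypoxic SCC154 replicate 1, VEGFA was at 32.1 CPM (others 102 to 121), HK2 at 17.8 (28.99 to 33.2), PMEPA1 at 91.3 (18.8 to 26.9), TPM1 at 284 (213 to 231) and PRKDC at 315 (226 to 245). In non-hypoxic SCC154 replicate 3, TMEM45A was at 2.88 CPM (others 7.46 to 9.18) and EGLN3 at 0.575 with the others at 0. In non-hypoxic replicate 4 of that line ARL14 was at 19.1 CPM (27.0 to 29.96).

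In post-hypoxic SCC154 replicate 3, NDRG1 was at 71.6 CPM (others 4.10 to 9.08) and KRT81 at 8.35 (6.14 to 6.35). In replicate 4 LDHA was at 482 CPM (304 to 326).

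In post-hypoxic FaDu replicate 1, CALD1 was at 185 CPM (others 202 to 209), MRNIP at 36.5 (23.9 to 27.3), NFIX at 115.5 (91.1 to 97.4) and KDM3A at 38.7 (57.6 to 62.2). In post-hypoxic replicate 5 PRKDC was at 219.5 CPM (262 to 276), and in replicate 3 INHBB was at 0.454 with the others at 0. In non-hypoxic FaDu, INHBB was at 0 in replicate 2 (0.475 to 0.539) and H1-2 at 379.8 CPM in replicate 1 (307 to 318).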

How the results depend on the processing

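The interaction called 2 genes. It called 51 with no filter on low counts, 21 with DESeq2, 224 with the replicate block within each line, 5 with a block shared across the lines, 6 with the block in FaDu only, and 2 to 3 when 1 library was left out. CALD1 and NFIB passed in each of the 31 settings. The block within each line also pairs the SCC154 numbers, which had correlations of 0.029 to 0.398 and were not taken as pairs. It leaves 6 residual degrees of freedom.

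Within SCC154 the 93 calls became 291 with no filter, 207 with DESeq2, 257 with voom quality weights, 51 with paired libraries only, and 1052, 243 and 171 with the block within each line, shared, and in FaDu only. Leaving out 1 library gave 20 to 190 calls: 20 to 59 without FaDu replicate 3 of either group, any of the 5 non-hypoxic SCC154 replicates or post-hypoxic replicates 2 or 4, and 163 and 190 without post-hypoxic replicates 3 and 5. Without 3 libraries together, chosen after seeing the data, it was 315. Within FaDu the 0 calls became 10 with no filter, 3 with DESeq2, 7 with the block within each line, and 0 to 1 with 1 library left out. The causes were not tested.

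Of 1778 values for 58 genes, 1694 kept direction and side of the threshold, 68 newly passed and 16 changed sign. NDRG1 (0.96) was -0.080 with voom, -0.65 with quality weights, -0.93 without the 3 libraries and -0.83 to 1.35 with 1 left out. PDK1 (0.09) was -0.36, -0.26 and -0.079 to 0.27 under the last 3 of these. IGF2BP2 (-0.03) was 0.00011 with the block in FaDu, 0.024 without the 3 libraries and -0.071 to 0.045 with 1 left out.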
